A study of Homo sapiens with 8 samples.

Results

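The genes described here encode 10 receptors for cytokines and growth factors: KIT, FLT3, CSF1R, CSF3R, CSF2RB, IL6R, IL1R2, IL10RA, TNFRSF1A and TNFRSF1B. They were taken by name from the 20098 protein-coding genes on chromosomes 1 to 22 and X. The cells were HL-60, an established human leukaemia line. The ATRA group received 1 µM all-trans retinoic acid for 4 days, and the control group received the same volume of ethanol, the solvent of ATRA, with medium and agent renewed during the treatment. Trimethylation of lysine 4 of histone H3 (H3K4me3) and acetylation of its lysine 27 (H3K27ac) were each mapped by ChIP-seq in 2 ATRA and 2 control libraries, 8 libraries in all. The cells were of 1 line, and the labels do not say that libraries came from separate cultures, so p-values measure only the spread between these libraries, which may be technical.

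Growth factor receptors guide blood formation by binding ligands made by neighbouring cells and passing the signal to kinases inside the cell. KIT and FLT3 are receptor tyrosine kinases known from stem and progenitor cells, whereas the receptors for G-CSF, interleukin-6, interleukin-10 and tumour necrosis factor are known from maturing and mature phagocytes. H3K4me3 marks promoters that are active or poised, and H3K27ac marks active promoters and enhancers. ATRA binds retinoic acid receptors and leads HL-60 cells towards granulocytes.

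Coordinates are on GRCh37, the build of the files, also called hg19. For each gene the measure was the length, in bp, that lay under peaks between 20 kb before and 20 kb after the gene body. Peak lists hold no read counts, so the depth behind them is unknown, and more cells carrying a mark and more of it per cell cannot be told apart. The 4 H3K27ac libraries held 15457 to 39332 peaks and the 4 H3K4me3 libraries 13241 to 16487. Control replicate 1 had the fewest H3K27ac peaks. The group of each library was taken from its title, and the direction of every difference given here rests on these labels. Over all chromosomes the ATRA libraries covered more length, with a log2 ratio of totals of 0.87 for H3K27ac and 0.22 for H3K4me3, so lengths were also compared after scaling every library of a mark to the same total. Scaling moved the median log2 ratio of all tested genes from 0.49 to -0.13 for H3K27ac and from 0.16 to -0.04 for H3K4me3. Of 10 myeloid marker genes, 7 or 8 had H3K4me3 within 2 kb of the transcription start site (TSS) in each library, although ELANE and AZU1, which encode granule proteins of promyelocytes, had none. Of 5 marker genes each, 0 T cell genes, 0 or 1 B cell genes, 1 erythroid gene and 0 or 1 fibroblast or epithelial genes had it in a library. H3K27ac lay within 2 kb of the TSS of 0 to 2 T cell genes, 2 B cell genes and 0 erythroid, fibroblast or epithelial genes. Summed over the gene windows it was nevertheless longer in ATRA cells for T cell markers (15246 and 22550 bp against 786 and 10762 bp), B cell markers (35607 and 30595 bp against 15803 and 19622 bp), erythroid markers (23949 and 21999 bp against 4886 and 7794 bp) and fibroblast and epithelial markers (37572 and 13877 bp against 4587 and 8562 bp), and the part of this in the results for the receptors was not tested.

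H3K27ac around the receptor genes was longer in ATRA than in control cells. In 8 of the 10 genes both ATRA libraries lay above both control libraries, and in 0 both lay below. Over the 15482 genes with an H3K27ac peak, 43.7% lay above in this way and 3.86% below. The median log2 ratio of group means was 0.99 for the 10 genes and 0.49 for all tested genes, and each of the 10 lay above that of all genes. After scaling, KIT, IL6R and IL10RA still lay above, which made 3 of 10 against 18.4% of all genes, and 0 of 10 lay below against 25.1%. A fit across all genes with limma, without a replicate block, called 0 of the 10 at an adjusted p under 0.05, and it called 0% of all genes higher and 0% lower, while 2768 genes were higher and 137 lower at an unadjusted p under 0.05.

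H3K4me3 differed less between the groups. Both ATRA libraries lay above both controls in 4 of the 10 genes, CSF1R, TNFRSF1A, TNFRSF1B and IL10RA, a share close to the 41.4% found over 14614 tested genes, and 0 lay below against 3.39%. The same 4 genes lay above after scaling, where 16% of all genes did, and CSF3R lay below, where 25.4% of all genes did. The CSF3R window also holds parts of OSCP1 and MRPS15. With neighbouring genes left out of all windows, the count above was 5 before scaling, CSF3R among them. The count above was 7 without ATRA replicate 2 and 9 without control replicate 1, and the count below was 3 without control replicate 2. Leaving a library out makes either count easier to reach. With neighbouring genes or a library left out, the shares of all genes were not counted. These counts cannot be read as particular to the receptor genes. limma called 0 of the 10 genes, with 0.0274% of all genes called higher and 0.0205% lower. At an unadjusted p under 0.05, 1430 genes were higher and 82 lower. The exact permutation test of 2 libraries against 2 cannot give a two-sided p below 0.333, so no single gene was tested in that way.

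**Figure D1:**
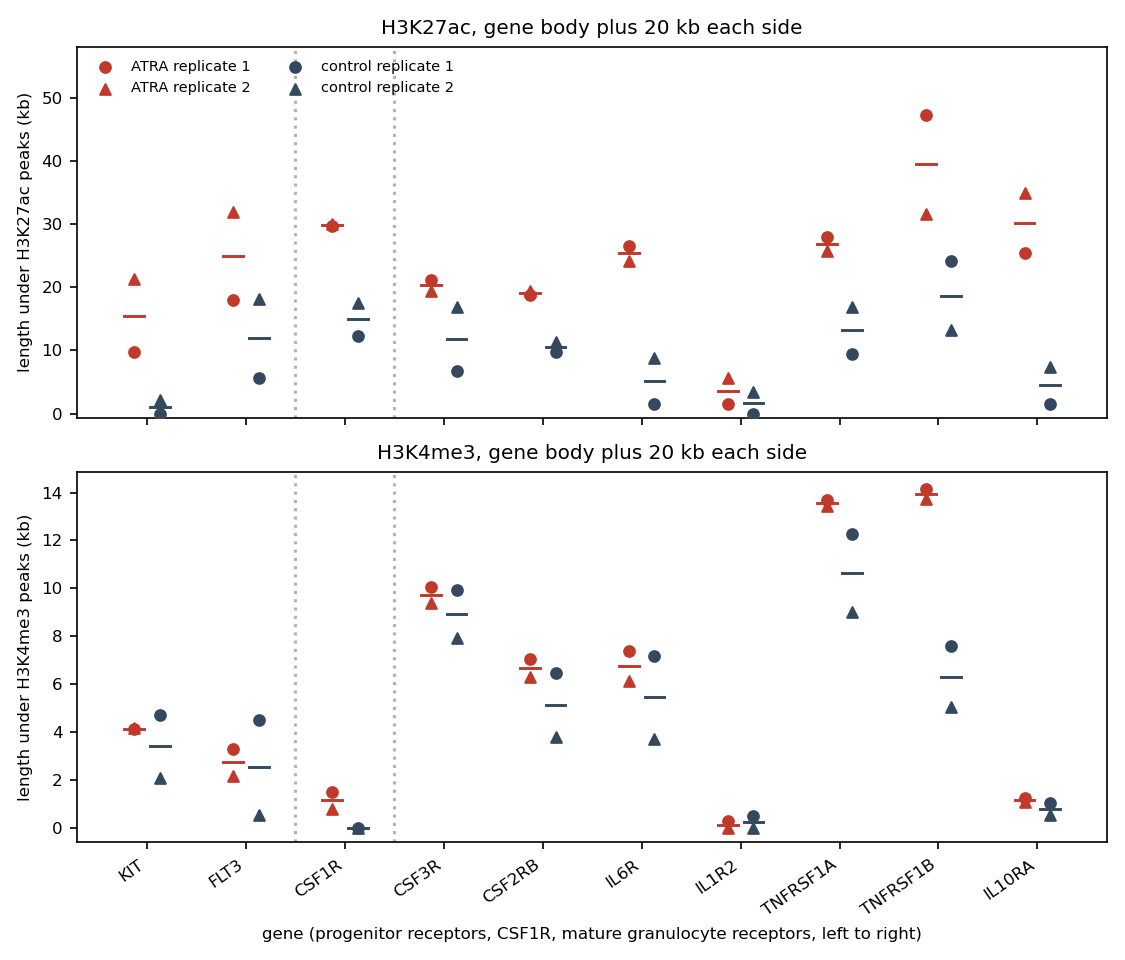
Length under H3K27ac peaks (upper panel) and H3K4me3 peaks (lower panel), in kb on the vertical axis, over each of the 10 genes plus 20 kb on each side. Circles and triangles are replicates 1 and 2, red is ATRA and dark blue is control, and each short line is the mean of 2 libraries. For H3K27ac, FLT3 and IL1R2 are the genes whose ATRA and control points overlap.

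KIT (chr4:55523434-55606949, plus strand), the receptor for stem cell factor, had the largest H3K27ac log2 ratio of the 10 genes, 2.96, which was higher than that of 98.7% of the tested genes. The length was 9782 and 21259 bp in the ATRA libraries and 0 and 2249 bp in the control libraries. Both ATRA libraries lay far above the controls, and the ATRA libraries also differed from each other. The limma log2 difference was 3.10 (SE 0.71, adjusted p = 0.118, n = 2 per group), and the ratio of means depended on the pseudocount, from 1.74 with 5000 bp to 3.57 with 200 bp. Its H3K4me3 did not follow, with 4124 and 4170 bp in ATRA and 4727 and 2099 bp in control cells. The ATRA values thus lay between the control values (limma adjusted p = 0.723). When only peaks with a deposited -log10 q of at least 5 were kept, H3K4me3 at KIT lay below in ATRA. It then covered 298 and 0 bp in ATRA and 4727 and 2099 bp in control cells.

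The added H3K27ac at KIT lay inside and behind the gene rather than over its TSS. No H3K27ac library had a peak over the KIT TSS. Within intron 1, a stretch from 28108 to 29964 bp and another from 31270 to 32315 bp after the TSS were under peaks in both ATRA libraries and in neither control library, and control replicate 2 had a peak of 1305 bp between them. Behind the gene, stretches of 832 and 1399 bp were under peaks in both ATRA libraries and in neither control. With shorter stretches included, 6830 bp of the KIT window were marked in this way.

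FLT3 (chr13:28577411-28674729, minus strand), the receptor for FLT3 ligand, did not separate the groups. Its H3K27ac length was 18016 and 31890 bp in ATRA and 5710 and 18121 bp in control cells. Control replicate 2 lay just above ATRA replicate 1, so the groups overlapped (limma log2 difference 1.14, SE 0.60, adjusted p = 0.390). All 4 libraries shared 2406 bp of H3K27ac in intron 1, and 2800 bp in intron 9 were marked in both ATRA libraries only, as the map of peaks at KIT and FLT3 shows. H3K4me3 covered 3314 and 2151 bp in ATRA and 4512 and 539 bp in control cells, so the widest spread was between the controls.

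**Figure D2:**
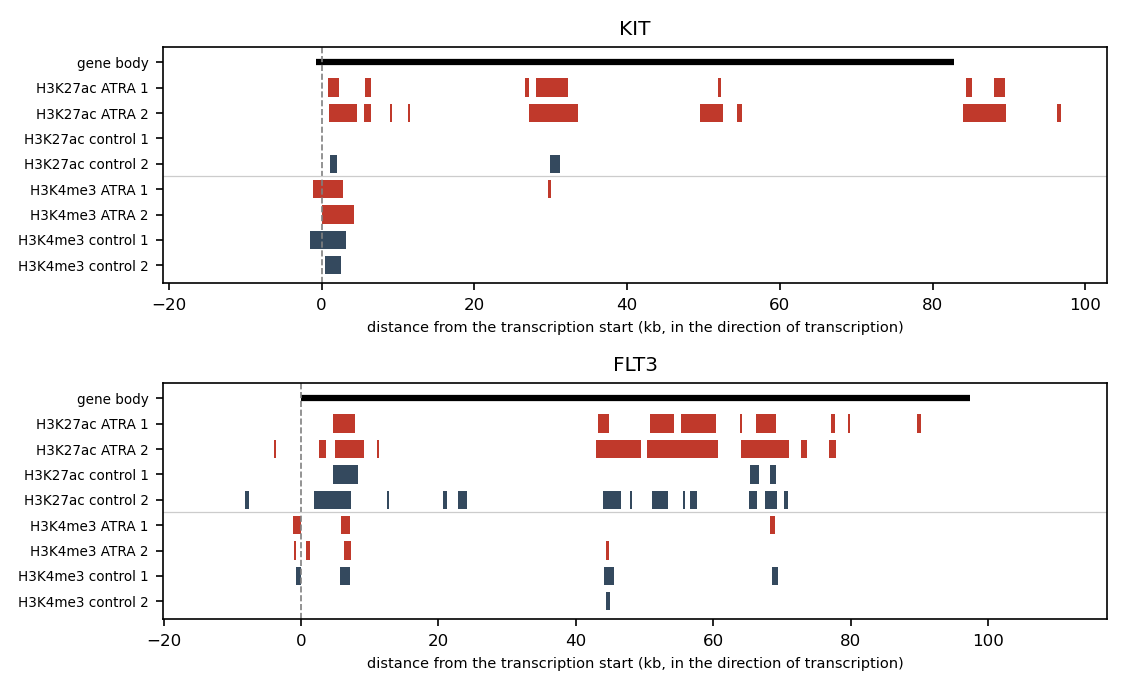
Peaks of each library at KIT and FLT3, by distance in kb from the transcription start site (dashed line) in the direction of transcription. Each row is 1 library, red for ATRA and dark blue for control, with H3K27ac above H3K4me3 and the gene body as a black bar. At KIT the H3K27ac rows of ATRA hold peaks at about the same places, whereas control 1 holds 0 peaks and control 2 holds 2.

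The difference between progenitor and mature receptors was larger for H3K27ac than for H3K4me3, with KIT and FLT3 unlike each other. The log2 ratio was 2.96 for KIT and 1.01 for FLT3. Of the mature receptors, IL10RA, IL6R and TNFRSF1B, at 2.51, 2.09 and 1.04, lay above FLT3, and the others lay below it. The median H3K27ac log2 ratio was 1.98 for KIT and FLT3 and 0.97 for the 7 receptors of mature granulocytes, a difference of 1.01. It was 0.42 without ATRA replicate 2 and 1.54 without control replicate 2. For H3K4me3 the medians were 0.15 and 0.28, a difference of -0.13, which became 0.46 without control replicate 1. These medians are over 2 and 7 genes and were not tested, since genes are not replicates.

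CSF1R (chr5:149432854-149492935, minus strand), the receptor for M-CSF and interleukin-34 that is known from monocytes and macrophages, was the receptor that gained H3K4me3 over its TSS. The peak over the TSS was 1510 and 801 bp long in the ATRA libraries, and both control libraries had no H3K4me3 peak in the whole window. Of all genes, 0.259% had a peak over the TSS in both ATRA libraries and in neither control for this mark. limma gave CSF1R an adjusted p of 0.421 for H3K4me3. With a deposited -log10 q of at least 5, the peak of 1510 bp in ATRA replicate 1 stayed and that of replicate 2 did not. H3K27ac lay over this TSS in replicate 2 of both groups, with peaks of 4384 bp in ATRA and 2040 bp in control cells, and in neither replicate 1 library.

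Over the whole CSF1R window H3K27ac covered 29632 and 29974 bp in ATRA and 12273 and 17568 bp in control cells. The ATRA libraries were close to each other and above both controls (limma log2 difference 0.97, SE 0.33, adjusted p = 0.212). The window also holds parts of HMGXB3 and PDGFRB. With these left out, 14619 and 17459 bp remained in ATRA and 3715 and 6863 bp in control cells. The longest stretch marked in both ATRA libraries and neither control was 2044 bp in intron 1, and stretches of 1159 and 1036 bp inside HMGXB3 were marked in both controls only.

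TNFRSF1B (chr1:12227048-12269285, plus strand), the larger of the receptors for tumour necrosis factor and one found mainly on immune cells, gained H3K27ac over its TSS. The peak over the TSS was 10274 and 1071 bp long in the ATRA libraries, and no control peak reached the TSS, although a control peak began 427 and 324 bp after it. A gain of this kind was seen at 3.03% of all genes. Its H3K4me3 lay over the TSS in all 4 libraries and was wider in ATRA cells, with peaks of 10321 and 10972 bp against 6317 and 5048 bp. In the window as a whole, H3K4me3 covered 14156 and 13731 bp in ATRA and 7575 and 5048 bp in control cells, with no overlap. The limma log2 difference was 1.05 (SE 0.20, adjusted p = 0.227, n = 2 per group), and after scaling it was 0.85 with an adjusted p of 0.0448, in a fit that called 0.472% of all genes higher and 0.212% lower.

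**Figure D3:**
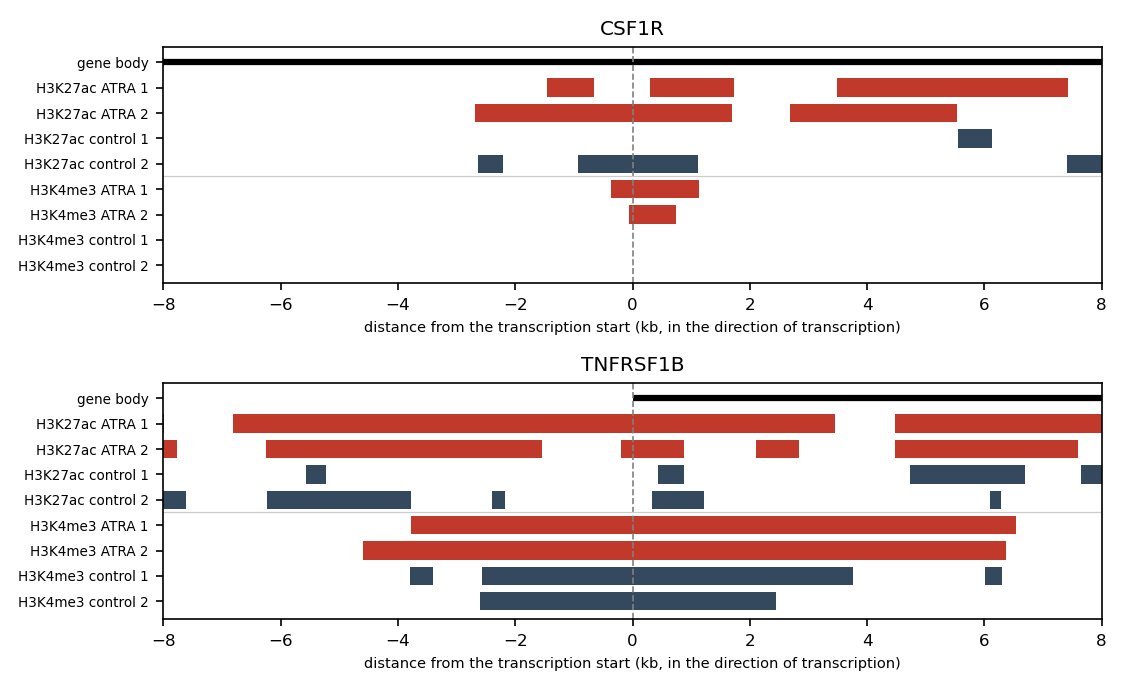
Peaks within 8 kb of the transcription start sites of CSF1R and TNFRSF1B, with 1 row per library, red for ATRA and dark blue for control, and the distance from the start in kb on the horizontal axis. H3K4me3 covers the CSF1R start in both ATRA rows and in no control row, and H3K27ac covers the TNFRSF1B start in both ATRA rows and in no control row.

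The promoters of CSF1R and TNFRSF1B are shown because these were the 2 genes whose TSS carried a mark in both libraries of one group and in neither of the other. Each runs from 250 bases before the TSS through the 50 bases that begin at it, in the direction of transcription, on GRCh37. The CSF1R promoter is chr5:149466068-149466367 on the minus strand and the TNFRSF1B promoter is chr1:12226798-12227097 on the plus strand. Both were identical to the RefSeq promoter sequences on GRCh38.p14, which hold 9 of the 10 genes and not CSF2RB. Capitals mark matches to the motifs described after the sequences.
CSF1R promoter: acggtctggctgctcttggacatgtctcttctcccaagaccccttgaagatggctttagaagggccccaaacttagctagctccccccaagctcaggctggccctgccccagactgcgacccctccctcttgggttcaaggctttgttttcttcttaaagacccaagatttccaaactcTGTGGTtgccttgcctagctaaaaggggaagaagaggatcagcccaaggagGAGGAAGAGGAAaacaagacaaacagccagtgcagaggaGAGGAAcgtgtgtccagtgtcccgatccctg
TNFRSF1B promoter: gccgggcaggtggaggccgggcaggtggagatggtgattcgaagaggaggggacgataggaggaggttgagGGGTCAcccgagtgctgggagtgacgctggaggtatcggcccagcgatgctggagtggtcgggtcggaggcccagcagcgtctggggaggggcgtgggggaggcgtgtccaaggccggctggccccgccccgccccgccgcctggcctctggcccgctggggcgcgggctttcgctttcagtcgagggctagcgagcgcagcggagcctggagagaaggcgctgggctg
The CSF1R promoter held the RUNX motif TGTGGT 71 bases before the TSS and 3 copies of the ETS motif GAGGAA, of which those at -20 and -14 adjoin each other and the third begins at base 20 of the transcript. The TNFRSF1B promoter held the retinoic acid receptor core motif GGGTCA at -179 and none of the other motifs. The CSF1R promoter had 54% G and C and that of TNFRSF1B 72%, beside a median of 63.7% over 20094 promoters of the same length.

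The motifs were searched on both strands. They were AGATAA and TGATAA for GATA factors, GAGGAA and GGAAGT for ETS factors such as PU.1, which can overlap each other, TGTGGT and TGCGGT for RUNX factors, TTGCNNAA for C/EBP factors, and AGGTCA and GGGTCA for retinoic acid receptors. Of all promoters 11.4% held a GATA motif, 43.1% an ETS motif, 18.9% a RUNX motif, 8.11% a C/EBP motif and 23.2% a retinoic acid receptor motif. A match is only a run of letters, and no binding was measured.

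IL10RA (chr11:117857085-117873752, plus strand), which encodes the ligand-binding chain of the interleukin-10 receptor, had the largest H3K27ac log2 ratio of the receptors of mature granulocytes, 2.51. H3K27ac covered 25376 and 34954 bp in ATRA and 1520 and 7431 bp in control cells. The groups were well apart, also after scaling (limma log2 difference 2.74, SE 0.63, adjusted p = 0.119). No H3K27ac peak with a -log10 q of at least 5 lay in the window in any library, as was also so for CSF1R and CSF2RB. As a share of the window this was 44.8% and 61.7% in ATRA and 2.68% and 13.1% in control cells. Part of the window belongs to SMIM35, and without it 13972 and 19893 bp remained against 949 and 4889 bp. In all 16068 bp were marked in both ATRA libraries and in neither control, the most of any of the 10 genes, with IL6R next at 12681 bp. Stretches of 2287 and 1990 bp among them overlapped SMIM35, so the place of IL10RA above IL6R rests on that neighbour. The longest such stretch ran from -17716 to -14908 bp relative to the TSS.

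At its TSS IL10RA carried no H3K27ac in any library. H3K4me3 was narrow, with 1233 and 1099 bp in ATRA and 1042 and 521 bp in control cells. Control replicate 1 lay just below both ATRA values (limma log2 difference 0.30, SE 0.27, adjusted p = 0.683).

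IL6R (chr1:154377669-154441926, plus strand), the interleukin-6 receptor chain, also had much longer H3K27ac in ATRA cells. It covered 26492 and 24209 bp in ATRA and 1520 and 8847 bp in control cells. The ATRA libraries lay close together and above both controls, also after scaling (limma log2 difference 2.40, SE 0.68, adjusted p = 0.163). A stretch of 7207 bp in intron 9 was marked in both ATRA libraries and in neither control, the longest such stretch at any of the 10 genes. With a deposited -log10 q of at least 5 the direction turned, with 0 and 468 bp in ATRA and 0 and 3112 bp in control cells. Over the TSS, H3K27ac was present in both ATRA libraries and in control replicate 2. H3K4me3 lay over the TSS in all 4 libraries, and its length overlapped between groups, with 7400 and 6122 bp in ATRA and 7192 and 3731 bp in control cells.

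**Figure D4:**
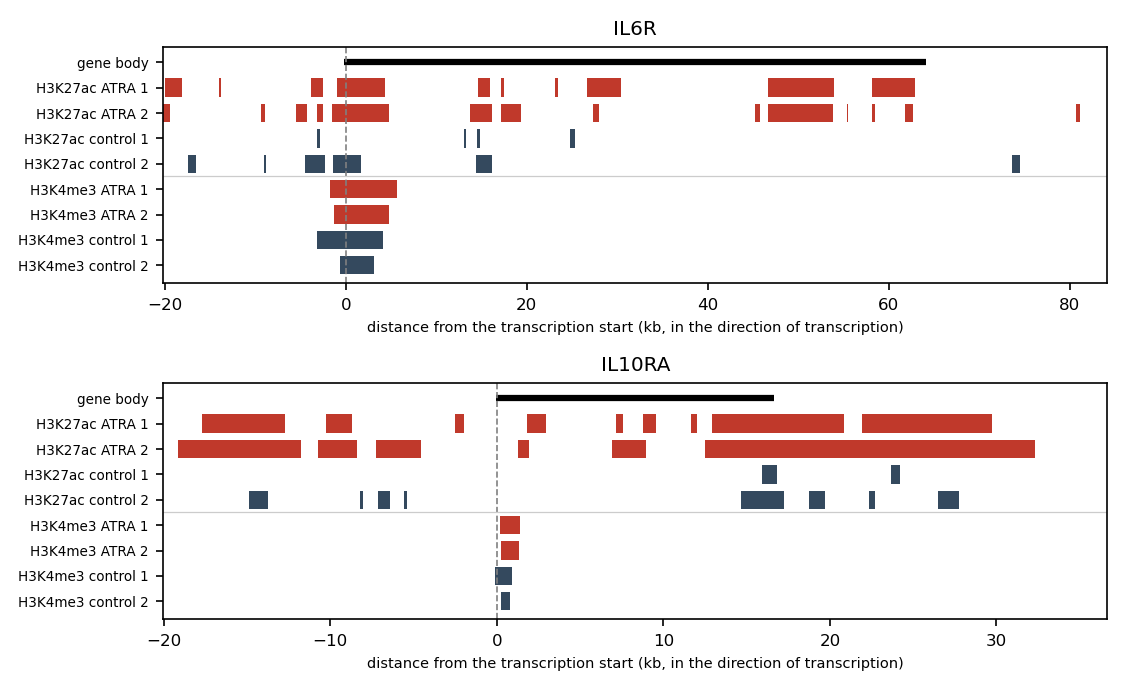
Peaks of each library at IL6R and IL10RA, by distance in kb from the transcription start site (dashed line), with rows and colours as in the map of KIT and FLT3. The H3K27ac stretch of 7207 bp in IL6R intron 9 has no counterpart in the control rows, while H3K4me3 lies near the start in both groups.

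The centres of the longest H3K27ac stretches of KIT and IL10RA are shown because these genes had the largest H3K27ac ratios of their classes. Each is the middle 300 bases of a stretch marked in both ATRA libraries and in neither control, read from the plus strand of GRCh37, on which both genes lie. The KIT window is chr4:55553010-55553309 in intron 1, and the IL10RA window is chr11:117840647-117840946 upstream of the gene. This choice was made after the values were seen. Capitals again mark motif matches.
KIT intron 1: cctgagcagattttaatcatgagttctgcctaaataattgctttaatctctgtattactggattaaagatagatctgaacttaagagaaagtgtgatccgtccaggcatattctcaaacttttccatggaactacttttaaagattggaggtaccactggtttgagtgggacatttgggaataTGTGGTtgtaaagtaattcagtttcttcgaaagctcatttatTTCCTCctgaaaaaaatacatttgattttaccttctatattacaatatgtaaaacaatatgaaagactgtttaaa
IL10RA upstream: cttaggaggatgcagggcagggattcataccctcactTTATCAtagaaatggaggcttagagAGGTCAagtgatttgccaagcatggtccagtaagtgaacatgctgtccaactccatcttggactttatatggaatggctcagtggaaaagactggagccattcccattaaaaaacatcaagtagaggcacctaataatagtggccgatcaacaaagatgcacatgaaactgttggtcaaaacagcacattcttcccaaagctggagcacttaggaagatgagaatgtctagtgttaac
The KIT window held the RUNX motif TGTGGT and, on the other strand, the ETS motif GAGGAA, and 32.3% of its bases were G or C. The IL10RA window held the retinoic acid receptor motif AGGTCA and, on the other strand, the GATA motif TGATAA, with 43.3% G and C. Among the central 300 bases of 13054 such stretches over all chromosomes, 24.3% held a RUNX motif, 40.1% an ETS motif, 33.5% a retinoic acid receptor motif, 23.9% a GATA motif and 13.6% a C/EBP motif, and the median G and C content was 47.7%.

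CSF3R (chr1:36931644-36948879, minus strand), the receptor for G-CSF and a marker of the granulocyte lineage, was marked in every library and had the smallest H3K27ac log2 ratio of the 10 genes, 0.73, with IL1R2 next at 0.74. H3K27ac covered 21220 and 19401 bp in ATRA and 6734 and 16918 bp in control cells. The groups did not overlap, but control replicate 2 came close to the ATRA libraries, and they overlapped after scaling (limma log2 difference 0.85, SE 0.48, adjusted p = 0.420). Without the parts of OSCP1 and MRPS15 in the window, 18230 and 11215 bp remained in ATRA and 3921 and 10516 bp in control cells. The log2 ratio of CSF3R was then 0.94 and no longer the smallest, with TNFRSF1A at 0.41 without its neighbours. After scaling, CSF2RB was the smallest at -0.08, beside 0.01 for CSF3R. All 4 H3K27ac libraries had a peak over the TSS, of 9721 and 10590 bp in ATRA and 2176 and 4926 bp in control cells. H3K4me3 covered 10046 and 9401 bp of the whole window in ATRA and 9928 and 7916 bp in control cells, with overlap between groups. Of this, a stretch of 4194 bp marked in all 4 libraries overlapped MRPS15. Without both neighbours, 4955 and 4652 bp remained in ATRA and 4091 and 3496 bp in control cells, and the groups did not overlap.

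CSF2RB (chr22:37309670-37336481, plus strand), the beta chain shared by the receptors for GM-CSF, interleukin-3 and interleukin-5, also carried both marks over its TSS in every library. Its H3K27ac length was 18839 and 19438 bp in ATRA and 9701 and 11386 bp in control cells. The libraries of a group were close and the groups apart (limma log2 difference 0.81, SE 0.31, adjusted p = 0.250), yet after scaling the ratio of means was -0.08 and the groups overlapped. The longest part marked in both ATRA libraries and neither control was 2369 bp in intron 11, and 3835 bp upstream were marked in all 4 libraries. H3K4me3 overlapped between groups, with 7034 and 6301 bp in ATRA and 6459 and 3813 bp in control cells.

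IL1R2 (chr2:102608422-102645006, plus strand), a decoy receptor that binds interleukin-1 without signalling, had the least length of both marks in the ATRA libraries among the 10 genes. In control cells KIT had a smaller mean of H3K27ac, with 0 and 2249 bp, and CSF1R had no H3K4me3. At IL1R2, H3K27ac covered 1484 and 5695 bp in ATRA and 0 and 3497 bp in control cells, so the groups overlapped (limma adjusted p = 0.627). With a deposited -log10 q of at least 5, its H3K27ac was found in control replicate 2 alone, with 3497 bp. H3K4me3 was found in replicate 1 of each group, with 280 bp in ATRA and 482 bp in control cells. No library had H3K4me3 within 2 kb of its TSS.

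TNFRSF1A (chr12:6437923-6451280, minus strand), the tumour necrosis factor receptor found on most cell types, had both marks over its TSS in all 8 libraries. H3K27ac covered 27949 and 25663 bp in ATRA and 9494 and 16842 bp in control cells, and H3K4me3 covered 13699 and 13446 bp in ATRA and 12266 and 9018 bp in control cells. For both marks the ATRA libraries lay above the controls, by limma log2 differences of 1.02 (SE 0.38, adjusted p = 0.242) and 0.34 (SE 0.17, adjusted p = 0.532). The direction for H3K27ac turned when only peaks with a deposited -log10 q of at least 5 were kept, with 0 bp in both ATRA libraries and 861 and 13427 bp in the controls. The window reaches into PLEKHG6 and SCNN1A, and without them H3K27ac covered 14226 and 12167 bp in ATRA and 8662 and 10744 bp in control cells. At TNFRSF1B, H3K27ac covered 47292 and 31565 bp in ATRA and 24112 and 13212 bp in control cells. These groups did not overlap, but did after scaling (limma adjusted p = 0.270).

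Per length of window, TNFRSF1A had the widest cover by H3K4me3, 25.7% and 25.2% in ATRA cells, followed by CSF3R with 17.6% and 16.4% and TNFRSF1B with 17.2% and 16.7%. CSF3R and TNFRSF1B did not differ beyond their spread in ATRA cells. IL1R2 was at the bottom with 0.366% and 0%. In control cells TNFRSF1A, with 23% and 16.9%, and CSF3R, with 17.3% and 13.8%, overlapped. These shares count neighbouring genes in the windows. Without neighbours, CSF3R kept 4955 and 4652 bp of H3K4me3 in ATRA cells, beside 14156 and 12965 bp for TNFRSF1B. In control cells it kept 4091 and 3496 bp, beside 12049 and 9018 bp for TNFRSF1A. Shares of the windows without neighbours were not computed, so the place of CSF3R in this order may rest on its neighbours.

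Over the TSS itself, H3K27ac was present in both ATRA libraries at 5 of the 10 genes, CSF3R, CSF2RB, IL6R, TNFRSF1A and TNFRSF1B, and in both control libraries at 3, CSF3R, CSF2RB and TNFRSF1A. The share over all genes was 28.6% and 21.6%. The control count became 5 without control replicate 1. H3K4me3 was over the TSS in both ATRA libraries at 6 genes and in both control libraries at 5, beside 51.9% and 50.9% of all genes, and the control count became 8 without control replicate 2. For both marks, the shares of all genes with a library left out were not counted. At KIT and FLT3, H3K4me3 lay over the TSS in replicate 1 of each group and in neither replicate 2 library, and at KIT the replicate 2 peaks began 121 and 492 bp after the TSS.

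Most of the H3K27ac length lay away from promoters. The part of the windows that lies away from promoters was not computed, so the density of the mark cannot be compared. Farther than 2 kb from any annotated start of a protein-coding gene, the 10 windows held 153066 and 180698 bp in ATRA and 48488 and 79756 bp in control cells. Within 2 kb of a start they held 73016 and 63350 bp in ATRA and 22576 and 36315 bp in control cells. Both parts were longer in the ATRA libraries, without overlap, as was the total over all chromosomes. When peaks of replicate 1 that overlapped a replicate 2 peak were kept, 38 H3K27ac peaks in the windows were specific to ATRA, 0 to control and 22 overlapped a control peak. KIT and CSF1R each had 7 of the 38, and IL6R and IL10RA each had 6. For H3K4me3 there were 6 specific to ATRA, 2 specific to control and 9 overlapping. Over all chromosomes the libraries held 28200 and 39332 H3K27ac peaks in ATRA and 15457 and 29616 in control cells. The shares of specific peaks over all chromosomes were not counted for either mark, so these counts cannot be read as particular to the receptor genes.

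**Figure D5:**
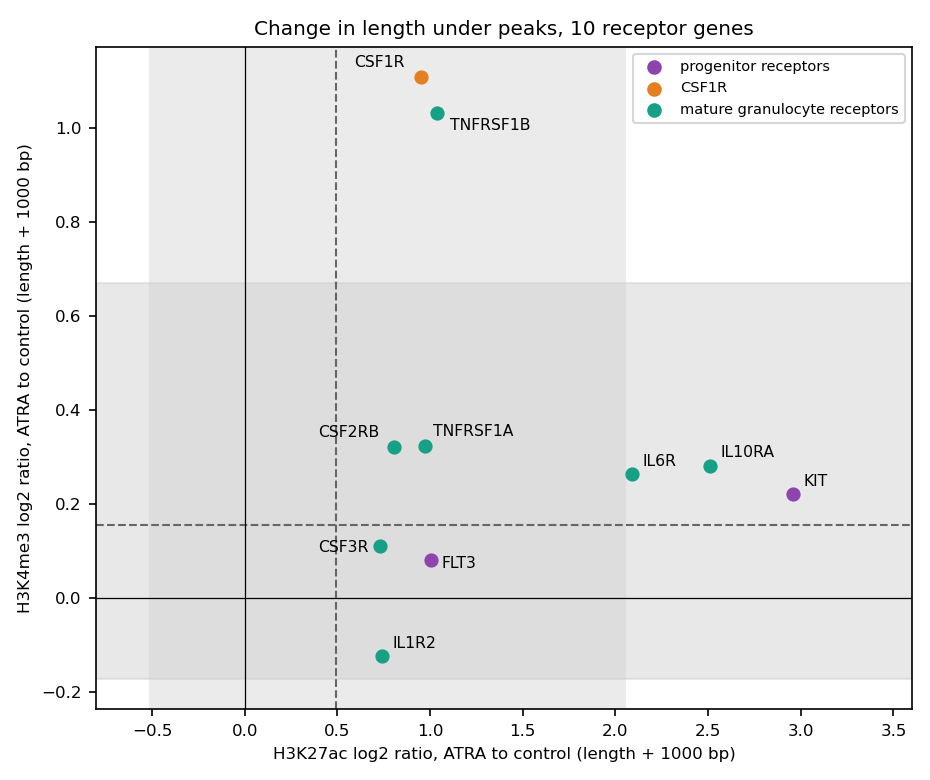
Log2 ratio of mean length under peaks plus 1000 bp, ATRA to control, for H3K27ac (horizontal) and H3K4me3 (vertical), with 1 point per gene coloured by class. Dashed lines are the medians of all tested genes, 0.49 and 0.16, and grey bands span their 5th to 95th percentiles. KIT, IL10RA and IL6R lie to the right of the H3K27ac band with H3K4me3 ratios of 0.22 to 0.28, and CSF1R, whose height depends on the pseudocount because its controls are at 0, and TNFRSF1B lie above the H3K4me3 band.

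Among 30 other cytokine and growth factor receptor genes, 24 had an H3K27ac peak, of which 10 lay above in both ATRA libraries and 1 below, but 6 above and 5 below after scaling, beside 43.7% and 3.86% of all genes before scaling and 18.4% and 25.1% after it. Their median log2 ratio was 1.02 before scaling. The largest were IL13RA1, a chain of the interleukin-13 receptor, with 10531 and 13588 bp against 0 and 1534 bp, and IL4R, the interleukin-4 receptor, with 13865 and 23911 bp against 1411 and 6086 bp. IFNAR2 of the interferon receptor and LTBR, the lymphotoxin receptor, followed with log2 ratios of 1.99 and 1.78. For H3K4me3, 6 of 24 lay above and 2 below, or 4 and 7 after scaling, beside 41.4% and 3.39% of all genes, or 16% and 25.4%. The median of 0.11 lay under that of all genes, 0.16. IL18RAP and IL5RA, chains of the interleukin-18 and interleukin-5 receptors, had opposite H3K4me3 log2 ratios of 1.30 and -0.47. limma called none of the 24 genes with a peak for either mark.

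Of 14 ligands and antagonists of the receptors, 9 had an H3K27ac peak, 5 lay above and 0 below, or 2 and 1 after scaling, beside the same shares of all genes, and the median log2 ratio was 0.82 before it. CSF1, the ligand of CSF1R, had 11759 and 4886 bp in ATRA cells and no H3K27ac in either control, and IL1B, a ligand bound by IL1R2, had 3246 and 9706 bp and none in either control. LTA and TNF, ligands of the tumour necrosis factor receptors, lie side by side and shared most of a window, with log2 ratios of 0.86 and 0.82 and overlap between groups after scaling. For H3K4me3, 1 of 7 lay above, IL1A, and 1 below, IL10, the ligand of IL10RA, with 642 and 729 bp against 1837 and 1110 bp. Both held after scaling. Of all genes, 41.4% lay above and 3.39% below for this mark, or 16% and 25.4% after scaling. limma, fitted to genes with a peak, called 0 of the 9 for H3K27ac and 0 of the 7 for H3K4me3.

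Of 25 signalling genes downstream of the receptors, all had H3K27ac peaks, 13 lay above and 2 below, or 9 and 7 after scaling, again beside 43.7% and 3.86% of all genes, or 18.4% and 25.1%. The median log2 ratio was 0.72 before scaling. SOCS3, an inhibitor of signalling by the G-CSF and interleukin-6 receptors, had 30195 and 21383 bp in ATRA and 437 and 528 bp in control cells, a log2 ratio of 4.18 (limma adjusted p = 0.0829). SOCS1, a related inhibitor, had 7767 and 7483 bp against 0 and 371 bp, and CBL and LYN, which act on receptor turnover and as a kinase, had log2 ratios of 1.98 and 1.76. For H3K4me3, 7 lay above and 2 below, or 4 and 8 after scaling, beside 41.4% and 3.39% of all genes, or 16% and 25.4%, with a median of 0.16 before scaling. SOCS3 again led with 11820 and 11650 bp against 6853 and 2547 bp, ahead of MYD88 and SOCS1. limma called 0 of the 25 for either mark.

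The genes whose lengths over the 8 libraries were nearest to those of KIT, by Euclidean distance of log2(length + 1000 bp), were CARMIL1, DNAH14 and DTNBP1, at 0.638, 0.789 and 0.864. The nearest to CSF3R were RPS10-NUDT3, SNRK and ENSG00000283128, at 0.410, 0.453 and 0.523.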

How the data were processed

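H3K4me3 and H3K27ac peaks of 8 HL-60 libraries were analysed, with 2 replicates per mark and condition named in the labels. Per the labels, the authors used cutadapt, Bowtie and MACS2 on hg19 and deposited a broad peak list per library, and versions are not given in the sources used here. Positions and the deposited −log10 q-values were used. The deposited fold enrichment and −log10 p columns hold impossible values and were not used. Read counts were not analysed here, so precision is set by the number of libraries.

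Genes came from GENCODE 44 lifted to GRCh37, and the TSS was the start of the MANE Select or canonical transcript (the gene's 5′ end for 279 genes without one). Length under merged peaks was summed over the gene body plus 20 kb each side. Ratios used a pseudocount of 1000 bp. limma 3.58.1 (R 4.3.3) with a mean-variance trend was fitted to log2(length + 1000 bp) over genes with a peak in at least 1 of the 4 libraries of a mark, with Benjamini-Hochberg adjustment and condition as the only term. Python 3.11.15 did the rest. Peak classes followed the study's overlap rule with a minimum of 1 bp.

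The receptor genes, lists and classes were chosen with earlier results of these data known. All 10 receptors are named. From each list and mark up to 4 genes are named, those apart between groups with the largest ratios (1 that met this rule is not reported here), together with the 3 nearest neighbours of the genes with the highest and lowest H3K27ac ratio. Promoters are shown for genes with a mark over the TSS in both libraries of one group and neither of the other. Alternatives were flanks of 0 and 50 kb, peaks with −log10 q of at least 5, scaled lengths, windows without neighbouring genes, numbers of peaks, pseudocounts of 200 and 5000 bp, other class members, no filter, other TSS and overlap rules, a replicate block and leaving out each library.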

Additional observations from a re-analysis of the deposited data

How the results depend on the processing

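Peak lists without read counts and 2 libraries per group limit these results, and the causes of the changes given here were not tested. With only peaks of −log10 q of at least 5, which left 12.8% to 16.9% of the H3K27ac peaks and 80.2% to 87.4% of the H3K4me3 peaks, the genes with more H3K27ac in ATRA were 2 (KIT and FLT3) and not 8, and those with less were 1 and not 0, those with more H3K4me3 were 2 and with less 1, 0 and 0 genes had H3K27ac over the TSS in ATRA and control cells, the progenitor minus mature differences were 1.89 for H3K27ac and -1.15 for H3K4me3, and the H3K27ac peaks specific to ATRA, specific to control and overlapping were 0, 1 and 0, with 5 overlapping for H3K4me3. With scaled lengths 3 genes had more H3K27ac, 1 had less H3K4me3, the H3K27ac class difference was 1.21 and limma called 1 gene for H3K4me3. By number of peaks 3 genes had more H3K27ac and 1 more H3K4me3, with a class difference of 0.66. The H3K27ac class difference was 0.68 in the gene body alone, where 7 genes had more H3K4me3, 0.77 with 50 kb flanks, 1.30 with a pseudocount of 200 bp and 0.48 with 5000 bp. For the gene counts with the −log10 q limit, by number of peaks and in the gene body, the shares of all genes were not counted. These counts cannot be read as particular to the receptor genes. Within 2 kb of the TSS 8 genes had H3K27ac in both ATRA libraries (44.3% of all genes) and 4 in both control libraries (37.2%). A reciprocal overlap of 50% gave 19 H3K27ac peaks specific to ATRA, 7 specific to control and 3 overlapping, and 0 specific to control for H3K4me3. Requiring absence from each library of the other condition gave 22 H3K27ac and 3 H3K4me3 peaks specific to ATRA and 1 H3K4me3 peak specific to control.

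Leaving out each library in turn, the H3K27ac class difference ran from 0.42 to 1.54 and the H3K4me3 one from -0.40 to 0.46, genes with more H3K4me3 from 4 to 9 and with less from 0 to 3, and genes with a TSS peak in control cells from 3 to 5 for H3K27ac and from 5 to 8 for H3K4me3. The replicate block compared ATRA with control within each replicate number. Differences between replicates 1 and 2 correlated between the groups over genes (r = 0.50 over 15482 genes for H3K27ac and 0.26 over 14614 for H3K4me3), and libraries of the same number share a tag in their peak names whose meaning is not stated, so the pairing is not established. With the replicate block limma called 8 of the 10 genes for H3K27ac, with 26.5% of all genes called higher and 1.67% lower, and 1 for H3K4me3, with 3.2% and 0.267%, while 10 genes had more H3K27ac and 7 more H3K4me3 and the H3K27ac class difference was 1.10. The replicate block on scaled lengths, added after seeing the data, gave 3 calls for H3K27ac, with 11.1% of all genes higher and 7.45% lower, 1 call for H3K4me3, with 4.4% and 2.07%, and 1 gene with less H3K4me3. Apart from limma calls, the shares of all genes were not counted with a library left out or with a replicate block. The gene counts under these settings cannot be read as particular to the receptor genes. Of 130 single-gene log2 ratios per mark under all settings, 88 for H3K27ac and 110 for H3K4me3 moved by less than the replicate spread, and 7 and 12 changed sign. KIT and FLT3 for H3K27ac, and CSF1R, TNFRSF1A and TNFRSF1B for H3K4me3, changed sign under none of the settings run. CSF1R and IL10RA changed sign in none for H3K27ac, but had no H3K27ac peak left with −log10 q of at least 5.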
